A study of Mus musculus with 54 samples.

Results

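The genes described here are those whose transcripts were reduced after 4 h of stimulation in naive CD4+ T cells whether or not the adaptor LAT was present. They were chosen in the LAT experiment by their measured values. Counts were divided by the library total and multiplied by 1e6 (CPM), log2(CPM + 1) was averaged over the samples of a group, and a gene was kept when its mean at 4 h was at least 1.5 below its mean at 0 h in both WT and Lat-/- cells, with falls that differed by at most 1. The rule kept 104 of the 55385 genes in the table, of which 27780 had at least 1 read in that experiment. The threshold was passed by 1050 genes in WT cells and by 190 in Lat-/- cells. It was passed in both genotypes by 162 genes, and 58 of these were left out because their falls differed by more than 1.

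LAT is a membrane adaptor that is phosphorylated after engagement of the T cell antigen receptor and assembles the complexes that lead to calcium entry and to the Ras pathway. CD28 and part of the receptor's signaling can act without it. CD5 and CD6 are surface receptors of T cells that bind signaling proteins on their cytoplasmic tails. Resting naive T cells keep up a program of transcripts for homing, survival, and a low tonic response to interferon, and a part of it is shut down within hours when the cells leave quiescence. The level of a transcript falls when less of it is made or when it is degraded faster, and RNA sequencing of whole populations does not separate these.

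The LAT experiment compared WT and Lat-/- naive CD4+ T cells, both sorted by flow cytometry from the same kind of mouse, Lat fl-dtr maT-Cre. Both populations therefore came from animals with the Cre transgene and the floxed allele, and differed in whether the human diphtheria toxin receptor (hDTR) was expressed (WT) or not (Lat-/-). The promoter that drives the Cre is not given in the sources used here. In the CD5/CD6 experiment, WT cells were compared with cells that lacked CD5 (Cd5-/-), CD6 (Cd6-/-), or both (Cd5-/-Cd6-/-), all of them naive CD4+ T cells that had been enriched magnetically and not sorted. All mice were on the C57BL/6 background and 8 to 10 weeks old, and lymph nodes and spleens were pooled. Cells were stimulated for 4 h or 20 h with plate-bound anti-CD3 at 3 µg/ml and soluble anti-CD28 at 1 µg/ml. The labels say that RNA of the 0 h samples was taken right after purification, so that stimulation and time in culture cannot be told apart in any value at 4 h or 20 h set against 0 h. Each of the 6 conditions of the LAT experiment and the 12 conditions of the CD5/CD6 experiment had 3 samples. The study calls them independent samples, but neither it nor the labels say that they came from separate animals, so the p-values measure the spread between samples, which may be technical.

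Library totals ranged from 17784644 to 28501095 counts in the LAT experiment and from 20554354 to 45222554 in the CD5/CD6 experiment. Lat stood at 222 to 313 CPM in WT cells at 0 h and at 11.4 to 20.3 CPM in Lat-/- cells at 0 h, without overlap, and the same held at 4 h and 20 h. WT cells of the CD5/CD6 experiment had more Lat, at 735 to 824 CPM at 0 h. At 20 h they stood at 459 to 629 CPM, against 97.1 to 107 CPM in WT cells of the LAT experiment. The cause of this difference was not tested. In the CD5/CD6 experiment, the 0 h libraries numbered 2 and labelled Cd5-/- and Cd6-/- went against their labels. Cd5 ranged from 107 to 822 CPM and Cd6 from 375 to 1362 CPM among the 0 h libraries labelled Cd5-/-. Among those labelled Cd6-/-, Cd5 ranged from 194 to 771 CPM and Cd6 from 270 to 1350 CPM. Whether these libraries had been exchanged was not tested, and both were kept under their labels. The markers of naive CD4+ T cells were detected in every group, at summed levels of 12843 to 14503 CPM in WT cells at 0 h in the LAT experiment. The 0 h libraries of the CD5/CD6 experiment also held RNA of other blood cells. The summed level of the erythroid and platelet markers was 1242 to 2575 CPM in its unstimulated WT cells and at most 4.1 CPM in any LAT library. None of the 104 genes is on a marker list of another cell type.

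Of the 104 genes, 10 belong to the interferon-induced set, and 5 of these are on the list of interferon-stimulated genes (Isg15, Isg20, Oas3, Rsad2, and Slfn5). Because a short motif, the core of the interferon-stimulated response element, lies near the start of several of them, the stretches around it are shown first. They were read from the RefSeq promoters of GRCm38.p6 (250 bases before to 50 after each gene's start). The letters GAAANNGAA were searched on both strands, and capitals mark the match. The search for this motif was added after the values of the genes were known.
Isg15, chr4:156200871-156200900, minus strand: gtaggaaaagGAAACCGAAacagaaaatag
Oas3, chr5:120777715-120777744, minus strand: gcagggaggaGAAAACGAAagtgaagggag
Slfn5, chr11:82951937-82951966, plus strand: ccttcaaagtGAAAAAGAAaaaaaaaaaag
Ddx60, chr8:61928058-61928087, plus strand: gagcagaagaGAAACCGAAactatccttca
Rsad2, chr12:26456552-26456581, minus strand, with the motif on the other strand: tggtccaactTTCATTTTCagaaaacagaa
Samd9l, chr6:3399522-3399543, minus strand: atcgaaactgGAAACTGAAgca

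The motif was present in the promoters of 4 of the 5 listed interferon-stimulated genes and of 9 of the 82 members with a promoter in the table (11.0%). The members with a match that are not shown above are Clybl, Coro2a, and Myo18a, which are outside the interferon-induced set. It was present in 8.56% of all 32851 promoters and in 8.72% of the 7835 genes with a promoter that were high enough at 0 h to pass the rule, so that its share over the members was near the background. A match of this kind is a description of letters and not a binding site.

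In the LAT experiment the members lost a median of 2.32 on the log2(CPM + 1) scale by 4 h in WT cells (range -4.44 to -1.54) and of 1.80 in Lat-/- cells (range -3.48 to -1.51). These values chose the genes and are given as a description, with no test. The fall was larger in WT than in Lat-/- cells for 89 of the 104. Just inside the threshold in WT cells stood ENSMUSG00000118423 at -1.54 and Dis3l2 at -1.56, and just outside it Angptl6 and Flna, both at -1.49. For Lat-/- cells, Rpgrip1 at -1.51 and Ddx60 at -1.52 were just inside, and Enpp5 at -1.48 and C2cd2l at -1.47 just outside. For the difference of the falls, Ggt5 and Ddx60 were inside at 0.99, and Map2k6 at 1.00 (before rounding, just above the limit) and Phf11b at 1.03 were outside. The scale understates the change of genes with few counts.

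Together the members made up 5560 to 7715 CPM of a WT library at 0 h, 1089 to 1466 CPM at 4 h, and 1966 to 2282 CPM at 20 h. In Lat-/- libraries they made up 6695 to 7758 CPM at 0 h, 1654 to 2385 CPM at 4 h, and 3539 to 3670 CPM at 20 h. The genotypes overlapped before stimulation, and at both 4 h and 20 h every Lat-/- library stood above every WT library. At 4 h the mean of log2(CPM + 1) was higher in Lat-/- than in WT cells for 91 members and lower for 13, with a median difference of 0.61. At 20 h the mean of log2(CPM + 1) was above that at 4 h for 65 members and below it for 39 in WT cells, and above it for 92 and below it for 12 in Lat-/- cells, against 4 h values that had chosen the genes.

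**Figure D1:**
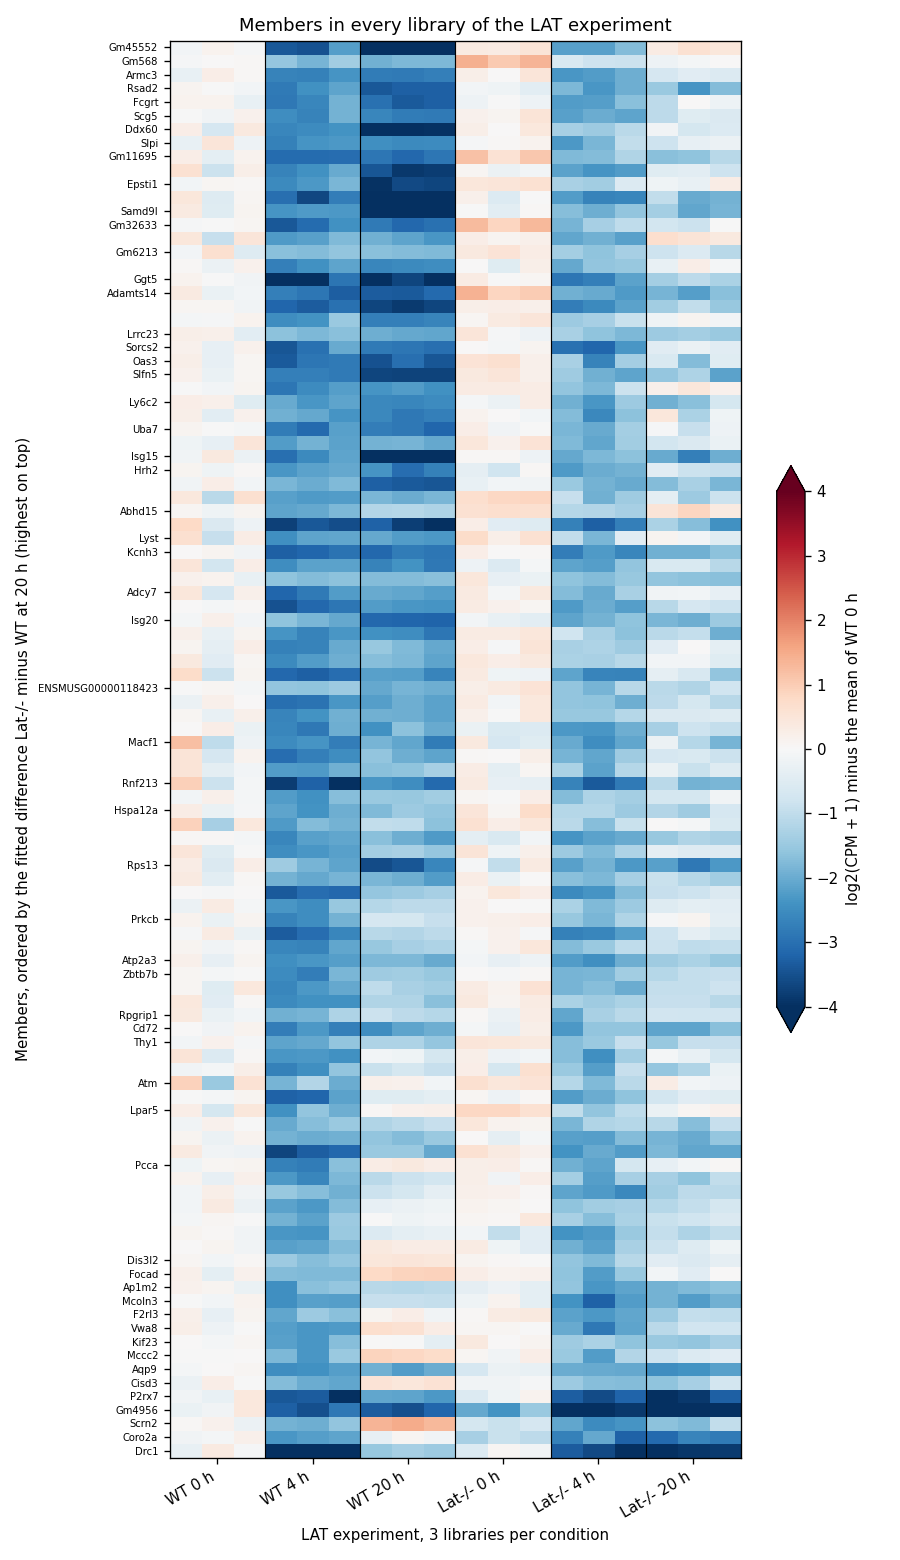
The 104 genes (rows) in the 18 libraries of the LAT experiment (columns), as log2(CPM + 1) minus the mean of the WT samples at 0 h, with rows ordered by the fitted difference between Lat-/- and WT cells at 20 h and the colour scale ending at -4 and 4. The 4 h columns are low in both genotypes, as the rule requires. At 20 h, 59 genes were called higher and 14 lower in Lat-/- than in WT cells.

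The members differed widely in level. Thy1 (chr9:44043384-44048579, plus strand), which encodes a lipid-anchored surface glycoprotein of T cells, had the highest CPM of all members. In the LAT experiment it stood at 1197, 1427, and 1227 CPM in WT cells at 0 h, at 297, 308, and 424 CPM at 4 h, and at 548, 543, and 437 CPM at 20 h. In Lat-/- cells it stood at 1774, 1765, and 1682 CPM, then at 391, 458, and 671 CPM, and at 20 h at 451, 672, and 679 CPM. The 0 h samples were above all later samples in both genotypes. Zbtb7b (chr3:89377644-89394776, minus strand) encodes ThPOK, the transcription factor that commits thymocytes to the CD4 lineage. It stood at 324, 289, and 305 CPM in WT cells at 0 h and at 52.2, 44.5, and 85.9 CPM at 4 h. The Lat-/- values were 311, 293, and 313 CPM and 82.7, 85.6, and 117 CPM. At 4 h the lowest Lat-/- library, at 82.7 CPM, lay below the highest WT library, at 85.9 CPM.

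The same genes were next followed in the CD5/CD6 experiment, whose libraries the rule had not used. There, a call required more than a 2-fold change with edgeR's quasi-likelihood test at an adjusted p under 0.05, over all 32290 genes tested. WT cells from it are called enriched WT cells below. In WT cells 102 of the 104 members fell between 0 h and 4 h, where 11.1% of all genes and 21.2% of the genes high enough at 0 h to pass the rule were called lower. No member rose, where 8.24% of all genes were called higher. The median log2 fold change of the members was -2.53 (range -7.90 to -0.94) and that of all genes 0.00. Coro2a, a coronin, and Rps13, a ribosomal protein gene with many pseudogene copies, were below the fold threshold (-0.99 and -0.94, with edgeR adjusted p = 0.00126 and 0.00418).

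Without CD5, CD6, or both, the members behaved in the same direction. In Cd5-/- cells 103 members fell and 0 rose (11.3% of all genes were called lower and 8.2% higher). The count for Cd6-/- cells was 98 and 0 (10.2% and 7.72%, with 20.2% lower among the genes high enough at 0 h to pass the rule), and that for Cd5-/-Cd6-/- cells was 102 and 0 (9.66% and 7.57%). The median log2 fold changes were -2.65, -2.29, and -2.32. All 104 members had a negative fold change in each of the 4 genotypes. The fall was called in all 4 genotypes for 98 members, in 3 for 2, in 2 for 3, and in 1 for 1. Besides Rps13 and Coro2a, the genes not called in Cd6-/- cells were Dis3l2, Focad, Isg20, and Lyst, and in Cd5-/-Cd6-/- cells they were Isg20 and Lyst. Without the doubtful 0 h libraries 103 members fell in Cd5-/- and 99 in Cd6-/- cells.

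**Figure D2:**
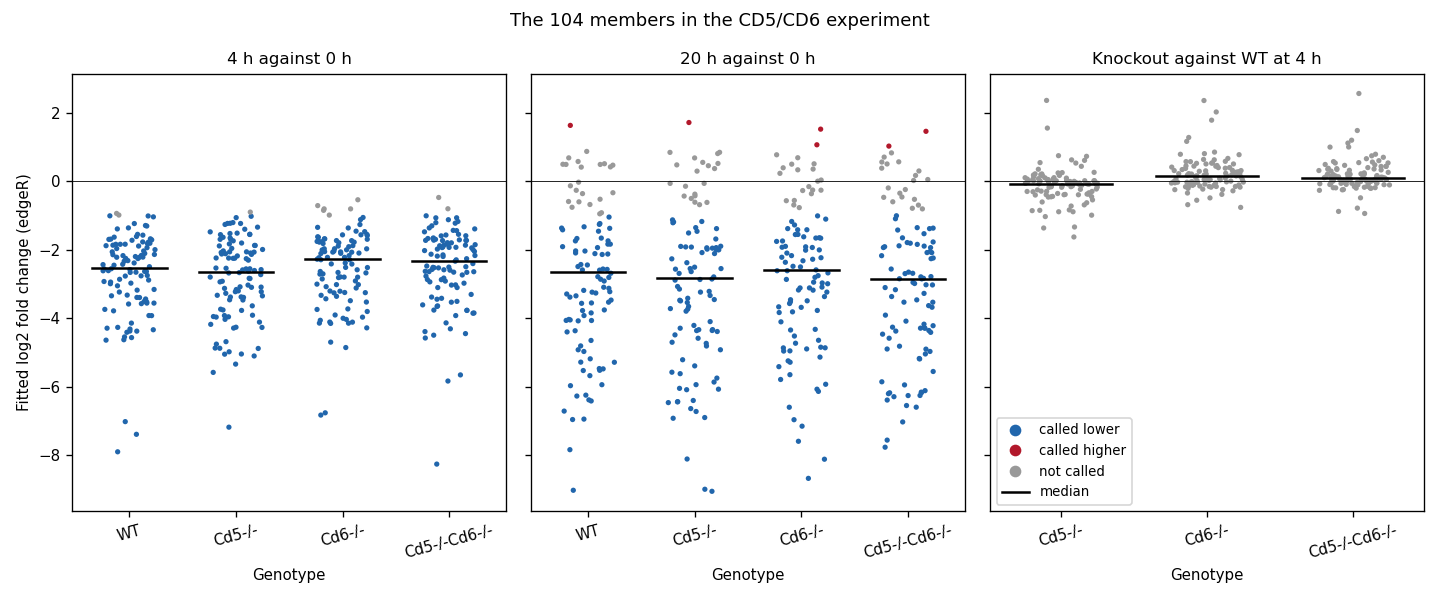
Fitted log2 fold changes of the 104 genes (1 point per gene, coloured by call, with the median as a line) in the CD5/CD6 experiment, for 4 h against 0 h and 20 h against 0 h in each of 4 genotypes and for each knockout against WT cells at 4 h. The 4 h medians lie between -2.65 and -2.29, and the knockout points lie around 0 with no gene called.

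The knockouts were also set against WT cells directly at 4 h. No member was called in any of the 3 knockouts, either by edgeR or by DESeq2. Over all genes edgeR called 0.0465% lower and 0.0279% higher in Cd5-/- cells, 0.0031% lower and 0 higher in Cd6-/- cells, and 0.0124% lower and 0.031% higher in Cd5-/-Cd6-/- cells. At an unadjusted p under 0.05 there were 12 members in each of the 3 comparisons, where the shares of all genes were 3.39%, 2.74%, and 2.76%. The median differences of the members from WT cells were -0.08, 0.14, and 0.08 on the log2 scale. The response to 4 h of stimulation in Cd5-/-Cd6-/- cells differed from that in WT cells for 0 members and 0 genes by edgeR. In that test 9 members had an unadjusted p under 0.05 (2.08% of all genes). With the replicate number as a block, 2 members were called lower in Cd5-/- cells (Sorcs2, log2 fold change -1.39, edgeR adjusted p = 0.0275, and Adamts14, -1.57, adjusted p = 0.0423) and Gm4956 was called higher in Cd6-/- cells (2.00, adjusted p = 0.00818). The count of 0 also depended on single replicate numbers. Without replicate 1, 2, or 3 in every group, 2, 2, and 3 members were lower in Cd5-/- cells (Sorcs2 and Adamts14 without replicate 1 or 3, Rsad2 without replicate 2 or 3, and Slpi without replicate 2), and 3, 1, and 1 were higher in Cd6-/- cells. Gm4956 was called higher in Cd6-/- cells in each of these 3 fits and Gm32633 and Slfn5 without replicate 1. In Cd5-/-Cd6-/- cells Gm4956, Rsad2, and Ly6c2 were called higher without replicate 1.

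Gm4956, a transcribed pseudogene, stood at 0.428, 0.626, and 0.562 CPM in WT cells at 4 h and at 1.28, 1.97, and 3.56 CPM in Cd6-/- cells, without overlap. Sorcs2, a sorting receptor, stood at 1.94, 2.05, and 2.15 CPM in WT and at 0.677, 0.694, and 1.03 CPM in Cd5-/- cells at 4 h, also without overlap.

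The interferon-induced genes are described together. The group, like the other role groups below, was put together from the members after their values were known, and it holds Isg15, Isg20, Oas3, Rsad2, Slfn5, Samd9l, Epsti1, Ddx60, Rnf213, and Uba7. Their products include a ubiquitin-like protein (Isg15) and the enzyme that activates it (Uba7), an exonuclease (Isg20), a double-stranded RNA sensor (Oas3), and the antiviral radical-SAM enzyme viperin (Rsad2). All 10 fell at 4 h in enriched WT cells, by a median log2 fold change of -2.20, and all 10 were still lower than at 0 h after 20 h. From 4 h to 20 h in enriched WT cells, 8 of the 10 fell further and 2, Rnf213 among them, were not called. In WT cells of the LAT experiment Rnf213 stood at 12.0, 18.2, and 9.16 CPM at 4 h and at 35.1, 31.3, and 19.6 CPM at 20 h. Of all 104 members, 102 fell at 4 h in enriched WT cells, so that a fall throughout a role group is no trait of that role.

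Isg15 stood at 49.3, 51.0, and 103 CPM in those WT cells at 0 h, at 9.19, 12.3, and 15.8 CPM at 4 h, and at 2.57, 3.39, and 5.23 CPM at 20 h. The 3 times did not overlap. The log2 fold change was -2.22 ± 0.32 (SE, n = 3 per time; edgeR adjusted p = 1.17e-08) at 4 h and -4.07 ± 0.35 (adjusted p = 5.56e-17) at 20 h, and the further fall from 4 h to 20 h was -1.85 ± 0.33 (adjusted p = 3.17e-06). In the LAT experiment Isg15 stood at 1.16, 2.17, and 1.54 CPM in WT cells and at 11.4, 6.50, and 12.0 CPM in Lat-/- cells at 20 h. Every Lat-/- library was above every WT library, and the difference was 2.65 ± 0.22 (SE, n = 3; edgeR adjusted p = 4.52e-32).

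Samd9l, which encodes an interferon-induced restriction factor, stood at 210, 281, and 141 CPM at 0 h, at 31.9, 52.4, and 35.3 CPM at 4 h, and at 2.99, 2.49, and 1.06 CPM at 20 h in enriched WT cells. Rsad2 stood at 50.0, 23.8, and 38.7 CPM, then at 14.1, 6.07, and 5.33 CPM, and at 20 h at 0.565, 0.108, and 0.0758 CPM. Both were therefore lower at 20 h than at 4 h in every sample. In Lat-/- cells at 20 h Samd9l stood at 54.3, 32.9, and 38.2 CPM against 2.95, 2.55, and 3.63 CPM in WT cells, a log2 difference of 3.84 ± 0.19 (SE, n = 3; edgeR adjusted p = 2.11e-93). Epsti1, which is induced in epithelial cells by stroma and by interferon, stood at 137, 125, and 191 CPM against 9.02, 11.6, and 11.3 CPM, a difference of 3.88 ± 0.17 (adjusted p = 1.45e-110). Slfn5, a member of the Schlafen family, stood at 8.98, 11.3, and 5.52 CPM against 1.25, 1.24, and 1.21 CPM, a difference of 2.86 ± 0.24 (adjusted p = 1.10e-30). Oas3, Slfn5, and Samd9l have close paralogs, and the assignment of reads that match several of them is uncertain.

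These genes belong to a larger list, in which the members are a minority. Of 67 interferon-stimulated genes tested in the CD5/CD6 experiment, 41 fell and 4 rose at 4 h in WT cells, with a median log2 fold change of -1.90. At 20 h 57 of 66 in the LAT experiment were called higher and 0 lower in Lat-/- than in WT cells. Other lists held few members. The list of quiescence genes held Slfn5 (19 of 35 fell and 2 rose at 4 h), the list of other G protein-coupled receptors and RGS proteins P2rx7, which is itself an ion channel (11 of 31 fell and 8 rose), and the list of antigen receptor signaling Prkcb (23 of 73 fell and 19 rose). The other 12 role lists held no member.

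Surface receptors and adhesion proteins were the largest role group, with 15 members, all of which fell at 4 h in enriched WT cells. Thy1 stood at 893, 891, and 1036 CPM at 0 h, at 221, 230, and 201 CPM at 4 h, and at 410, 347, and 312 CPM at 20 h, without overlap between the times. The log2 fold change of Thy1 at 4 h was -1.87 ± 0.16 (SE, n = 3; edgeR adjusted p = 6.57e-17). P2rx7 (chr5:122643911-122691432, plus strand), an ATP-gated ion channel that can trigger the death of T cells, stood at 34.2, 39.6, and 34.3 CPM at 0 h and at 1.51, 1.06, and 1.26 CPM at 4 h. It was therefore nearly lost at 4 h, with a log2 fold change of -4.57 ± 0.29 (adjusted p = 4.73e-23), and rose again by 1.33 ± 0.28 from 4 h to 20 h (adjusted p = 7.94e-05). Fcgrt, the neonatal Fc receptor, stood at 13.1, 13.3, and 18.5 CPM at 0 h, at 0.714, 1.04, and 1.09 CPM at 4 h, and at 0.0565, 0.0361, and 0.0758 CPM at 20 h.

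The group also holds receptors for lipids, proteases, and histamine (Lpar5, F2rl3, and Hrh2) and the B cell coreceptor Cd72. Summed B cell markers also moved with time, from 1142 to 3198 CPM at 0 h to 327 to 865 CPM at 4 h in enriched WT cells and from 782 to 969 CPM to 73.1 to 179 CPM in the LAT experiment. In the same enriched WT cells 9 of 13 B cell markers and 13 of 15 myeloid markers were called lower at 4 h, with the summed myeloid level going from 233 to 473 CPM to 37.9 to 60.3 CPM. Called lower there were also 7 of 10 stromal and endothelial markers (258 to 290 CPM at 0 h and 42.9 to 81.6 CPM at 4 h) and 7 of 12 NK and innate T cell markers (84.8 to 121 CPM and 36.5 to 47.4 CPM). In the sorted cells of the LAT experiment the summed myeloid level was 3.2 to 10.5 CPM at 0 h over both genotypes. The NK and innate T cell markers summed to 19.8 to 77.1 CPM in the same libraries. Stromal and endothelial markers summed to 239 to 300 CPM there, and B cell markers to 782 to 1195 CPM. The members were chosen by their measured falls at 4 h in WT and Lat-/- cells of that experiment. In such mixed RNA, fewer cells of a type and less RNA per cell cannot be told apart, and the part of other cells in the falls of single members was not tested.

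Among signaling enzymes and adaptors, all 11 members fell at 4 h and all 11 were lower at 20 h than at 0 h. Adcy7 (chr8:88272403-88329962, plus strand), an adenylyl cyclase that makes cAMP, stood at 315, 415, and 239 CPM at 0 h, at 42.9, 50.2, and 37.0 CPM at 4 h, and at 62.0, 43.9, and 37.9 CPM at 20 h in enriched WT cells. The 0 h samples were above all others, and the 4 h and 20 h samples overlapped (log2 fold change 0.04 ± 0.21, edgeR adjusted p = 1.00). In the LAT experiment at 20 h it stood at 62.1, 59.5, and 54.2 CPM in WT and at 231, 236, and 201 CPM in Lat-/- cells, a difference of 1.99 ± 0.15 (adjusted p = 2.58e-36). Prkcb, protein kinase C beta, had a log2 fold change of -1.83 ± 0.21 at 4 h (adjusted p = 1.45e-11), and Atp2a3, a calcium pump of the endoplasmic reticulum, one of -1.64 ± 0.18 (adjusted p = 2.00e-12). At 20 h Prkcb and Atp2a3 were higher in Lat-/- than in WT cells by 0.72 ± 0.16 (adjusted p = 1.58e-05) and 0.54 ± 0.15 (adjusted p = 0.00108), both under the fold threshold.

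**Figure D3:**
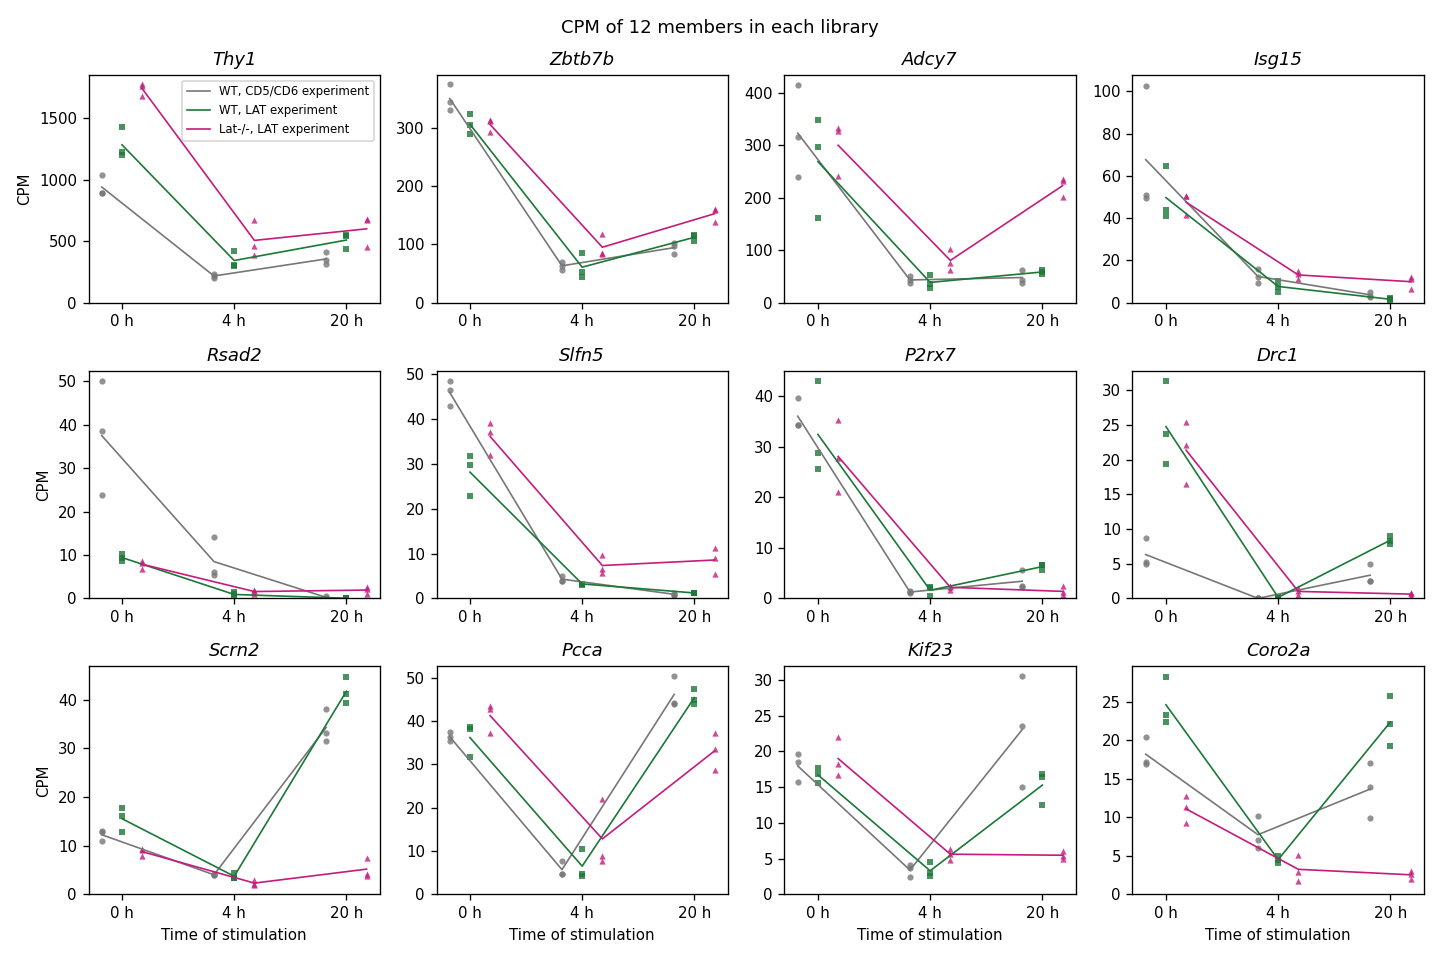
CPM of 12 members in each library (points; lines join the means) at 0 h, 4 h, and 20 h, in enriched WT cells and in WT and Lat-/- cells of the LAT experiment. Thy1 was lower at 4 h and 20 h than at 0 h in every series, Isg15, Rsad2, and Slfn5 were lowest at 20 h in WT cells, and Scrn2 and Pcca were lowest at 4 h and high again at 20 h in WT cells.

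Several members encode very large proteins of the cytoskeleton, the nuclear envelope, or membrane traffic, and the values of some varied widely between replicates. Macf1, which links actin to microtubules, stood at 700, 151, and 267 CPM in WT cells at 0 h in the LAT experiment and at 52.7, 58.9, and 44.4 CPM at 4 h. In the CD5/CD6 experiment it stood at 562, 1012, and 222 CPM at 0 h and at 93.2, 156, and 44.0 CPM at 4 h. The times did not overlap within either experiment, but the 0 h values spanned more than the later ones. The log2 fold change was -2.34 ± 0.54 (SE, n = 3; edgeR adjusted p = 0.000251). Rnf213, a giant ubiquitin ligase, stood at 344, 98.4, and 167 CPM in WT cells at 0 h in the LAT experiment. All 9 members of the group of very large proteins fell at 4 h.

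This spread followed transcript length and library. For the 18 members with more than 10 kb of exons, the median deviation from the mean of the condition was 0.52, -0.63, and 0.05 on the log2 scale in the 3 WT libraries at 0 h in the LAT experiment. For the other 86 members it was 0.05, -0.08, and 0.04. It was 0.26, -0.44, and 0.16 for 984 long genes high enough at 0 h to pass the rule, so that the deviation was shared by long transcripts in general. This was the widest spread of the LAT experiment, and in its other 5 conditions the long members deviated by -0.29 to 0.22. In the CD5/CD6 experiment replicate 3 was the lowest in 11 of 12 conditions, by -0.90 to -0.24. The part of this in the falls of the long members was not tested.

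A group of 7 members encodes proteins of cilia and of the axoneme, their microtubule core, and all 7 fell at 4 h in enriched WT cells. Drc1 (chr5:30281388-30366695, plus strand), a subunit of the dynein regulatory complex, stood at 8.71, 5.26, and 5.02 CPM at 0 h, at 0, 0.0241, and 0.0331 CPM at 4 h, and at 4.94, 2.56, and 2.58 CPM at 20 h. The 4 h samples held 2 counts in all against 590 at 0 h, a ratio of 328 (exact 95% interval 90.5 to 2718, which covers counting error only). From 4 h to 20 h the ratio was 187 (51.4 to 1553), with 314 counts at 20 h. Against 0 h, Drc1 was not called at 20 h in enriched WT cells but was lower in Cd5-/- (-1.94), Cd6-/- (-1.28), and Cd5-/-Cd6-/- cells (-1.37). In the LAT experiment Drc1 stood at 19.4, 31.3, and 23.6 CPM at 0 h, at 0.0833, 0.201, and 0.211 CPM at 4 h, and at 7.90, 9.02, and 8.28 CPM at 20 h in WT cells. The Lat-/- values were 16.5, 25.5, and 22.2 CPM, then 1.51, 1.07, and 0.480 CPM, and 0.406, 0.722, and 0.764 CPM at 20 h. At 20 h the WT samples lay between their 4 h and 0 h samples, and the Lat-/- samples overlapped with their 4 h samples. The difference between the genotypes at 20 h was -3.64 ± 0.29 (SE, n = 3; edgeR adjusted p = 1.04e-35).

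Drc1 was the only 1 of the 7 called higher from 4 h to 20 h in enriched WT cells. It was also the only 1 called lower in Lat-/- than in WT cells at 20 h. Of the 7, 4 fell further from 4 h to 20 h, and 4 were higher in Lat-/- cells at 20 h. Armc3, an armadillo-repeat protein, was among the 4 in both counts. It stood at 5.17, 5.06, and 6.59 CPM at 0 h, at 0.0571, 0.337, and 0.298 CPM at 4 h, and at 0.0282, 0, and 0.114 CPM at 20 h in enriched WT cells. In Lat-/- cells at 20 h it stood at 3.75, 4.58, and 4.20 CPM against 0.0893, 0.0749, and 0.140 CPM in WT cells, a difference of 5.38 ± 0.47 (SE, n = 3; edgeR adjusted p = 2.29e-29). Lrrc23, a radial spoke protein, had 0 counts at 20 h against 210 at 0 h in enriched WT cells.

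At 20 h the members differed in their courses, which are given here by calls. Against 0 h, 81 members were lower in enriched WT cells (17.3% of all genes were called lower), 83 in Cd5-/- cells (17.5%), 83 in cells without CD6 (16.8%), and 82 in cells without both (18%). The median log2 fold changes were -2.65, -2.83, -2.60, and -2.84. The fall was called in all 4 genotypes for 80 members and in none for 21. The count of members called higher was 1, 1, 2, and 2, where 12.3%, 12.5%, 11.4%, and 12.3% of all genes were called higher. Scrn2 was higher in all 4 genotypes (1.62 in WT cells, edgeR adjusted p = 1.86e-12), and Focad, a focal adhesion protein, in Cd6-/- (1.06) and Cd5-/-Cd6-/- cells (1.02). Focad lost its call in Cd6-/- cells without replicate 3 or with library totals, and in Cd5-/-Cd6-/- cells without replicate 1 or 2, with the replicate block, with DESeq2, with RLE factors, or with library totals.

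From 4 h to 20 h in enriched WT cells, 28 members fell further (12.2% of all genes were called lower), 29 rose (8.74% were called higher), and 47 were not called. Among the genes high enough at 0 h to pass the rule the shares were 16.3% and 15.4%. The median of the members was -0.01 (range -5.51 to 7.14). The 10 interferon-induced genes made up 8 of the 28 that fell and none of the 29 that rose. The 8 mitochondrial and metabolic members made up 7 of those that rose and none of those that fell. Both groups were put together after the values were known, so these counts are a description and were not tested.

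Of the mitochondrial and metabolic members, 2 were lower at 20 h than at 0 h and the other 6 were not called. Pcca, a subunit of propionyl-CoA carboxylase, stood at 35.3, 37.5, and 36.3 CPM at 0 h, at 4.80, 7.66, and 4.60 CPM at 4 h, and at 44.2, 44.0, and 50.3 CPM at 20 h in enriched WT cells. The rise from 4 h to 20 h was 2.91 ± 0.18 on the log2 scale (SE, n = 3; edgeR adjusted p = 5.90e-24). Mccc2, a subunit of the carboxylase of leucine breakdown, stood at 16.1, 16.2, and 15.6 CPM, then at 4.08, 3.28, and 3.90 CPM, and at 23.2, 21.3, and 25.1 CPM at 20 h. In both genes the 4 h samples were the lowest and the 20 h samples the highest, without overlap. Scrn2 (chr11:97029938-97033958, plus strand), a secernin, had the same course with 10.9, 12.8, and 13.1 CPM, 4.23, 3.90, and 3.90 CPM, and 31.6, 33.2, and 38.2 CPM. Kif23, a kinesin of cytokinesis, stood at 19.6, 18.5, and 15.8 CPM at 0 h, at 4.08, 3.66, and 2.41 CPM at 4 h, and at 30.5, 23.6, and 15.1 CPM at 20 h, with 0 h and 20 h samples that overlapped.

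The 20 h samples of the LAT experiment, which the rule had not used, give the comparison of Lat-/- with WT cells. Of the 104 members, 59 were higher in Lat-/- cells (12.1% of all 27780 genes tested were called higher, and 23% of those high enough at 0 h to pass the rule). Lower in Lat-/- cells were 14 members (12.3% and 19.8%), and 31 were not called. The median difference of the members was 1.30 on the log2 scale (range -3.64 to 5.93), and that of all genes 0.00. A difference in the same direction was present at 4 h, with a median of 0.61 in log2(CPM + 1), in libraries that had chosen the genes. All 10 interferon-induced members, 8 of the 9 very large proteins, 7 of the 11 signaling members, and 7 of the 15 receptors were higher in Lat-/- cells. Of the 8 mitochondrial and metabolic members, 3 were lower and 1 higher. These role groups were put together after the values were known, and their counts were not tested. The summed markers of naive CD4+ T cells differed in the same libraries, at 12912 to 13927 CPM in Lat-/- and 5905 to 6055 CPM in WT cells at 20 h, with 4 of 11 called higher in Lat-/- cells. Summed B cell markers stood at 854 to 1149 CPM against 310 to 351 CPM (3 of 13 called higher and 2 lower), and stromal and endothelial markers at 305 to 340 CPM against 36.1 to 53.0 CPM (1 of 8 higher, with 8 of the 11 on the list at 0 in Lat-/- cells). Regulatory and memory T cell markers stood at 56.1 to 171 CPM against 663 to 724 CPM (4 of 12 lower and 2 higher), and at 0 h already at 72.4 to 182 CPM against 253 to 364 CPM. The part of these cells in the differences of the members was not tested.

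The member with the highest difference was Gm45552, an antisense transcript. In WT cells it stood at 104, 123, and 108 CPM at 0 h, at 9.78, 8.99, and 23.5 CPM at 4 h, and at 2.05, 2.06, and 3.86 CPM at 20 h. In Lat-/- cells it stood at 144, 140, and 160 CPM at 0 h, at 24.2, 23.9, and 32.6 CPM at 4 h, and at 141, 170, and 152 CPM at 20 h. The fall at 4 h was thus present in every library of both genotypes. At 20 h the Lat-/- samples overlapped with their 0 h samples, and the WT samples lay below their 4 h samples. The difference at 20 h was 5.93 ± 0.20 (SE, n = 3; edgeR adjusted p = 6.85e-194). The use of strand in counting is not given in the sources used here, and without it the reads of an antisense transcript cannot be told apart from those of the opposite strand.

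The members lower in Lat-/- cells at 20 h were Drc1, Coro2a, Scrn2, Gm4956, P2rx7, Cisd3, Aqp9, Mccc2, Kif23, Vwa8, F2rl3, Mcoln3, Ap1m2, and Focad. Scrn2 stood at 41.1, 44.7, and 39.5 CPM in WT and at 4.26, 3.86, and 7.39 CPM in Lat-/- cells, a difference of -2.96 ± 0.22 (SE, n = 3; edgeR adjusted p = 1.02e-39). Coro2a stood at 19.2, 25.7, and 22.1 CPM in WT and at 1.93, 3.07, and 2.59 CPM in Lat-/- cells (-3.07 ± 0.24, adjusted p = 1.94e-37). It was already lower in Lat-/- cells at 0 h, at 9.20, 12.7, and 11.3 CPM against 22.3, 23.2, and 28.3 CPM, and so was Gm4956, at 5.44, 4.02, and 8.49 CPM against 20.9, 22.7, and 34.4 CPM. Pcca (-0.40 ± 0.17, adjusted p = 0.0566) and Thy1 (0.30 ± 0.15, adjusted p = 0.105) were not called.

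**Figure D4:**
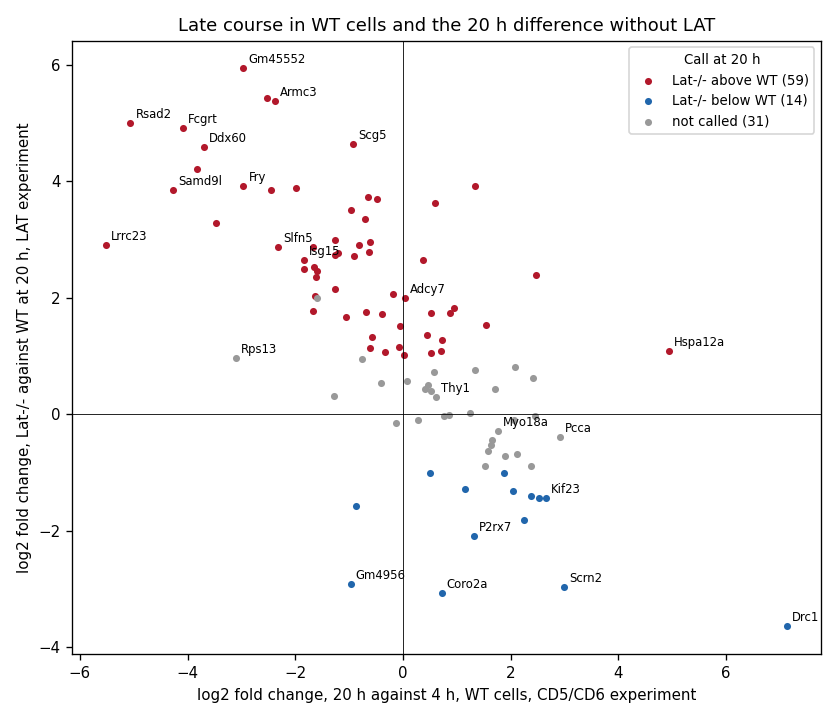
Each of the 104 genes by its log2 fold change from 4 h to 20 h in enriched WT cells (x axis) and by its log2 difference between Lat-/- and WT cells at 20 h in the LAT experiment (y axis), with 59 genes called higher in Lat-/- cells in red, 14 called lower in blue, and 31 not called in grey. Of the 28 genes that fell further in WT cells, 26 are red and none is blue.

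The late course in WT cells and the difference at 20 h were measured in separate libraries. Of the 28 members that fell further from 4 h to 20 h in enriched WT cells, 26 were higher and 0 lower in Lat-/- than in WT cells of the LAT experiment. Of the 29 that rose, 10 were lower, 3 were higher, and 16 were not called. Of the 47 that did neither, 30 were higher and 4 lower. The same cross over all genes gave 39.8% higher and 5.94% lower among 3768 genes that fell further, and 2.02% higher and 54.9% lower among 2821 that rose. Among the genes high enough at 0 h to pass the rule, 60% of the 1633 that fell further were higher in Lat-/- cells, and 48.7% of the 1544 that rose were lower. The direction was therefore shared with genes outside the set. These counts describe members chosen for their 4 h values, and the 20 h level of WT cells enters both comparisons, although in different samples.

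The members with the lowest fold changes at 4 h were mostly of low level, with few counts left. After Drc1 came Hspa12a, a heat shock protein family member, with 2 counts at 4 h against 417 at 0 h in enriched WT cells, a ratio of 232 (exact 95% interval 63.8 to 1923, counting error only). Gm11695, an antisense transcript, stood at 7.98, 8.66, and 6.64 CPM at 0 h and at 0, 0.0723, and 0.0662 CPM at 4 h. The long noncoding RNA Gm32633 (-4.64 ± 0.37), the potassium channel gene Kcnh3 (-4.63 ± 0.43), the secretory chaperone gene Scg5 (-4.55 ± 0.47), Gm568 (-4.41 ± 0.68), Abhd15 (-4.38 ± 0.42), and Gm6213 (-4.38 ± 0.57) followed, each with SE over 3 samples per time. Abhd15, an alpha/beta hydrolase, rose from 4 h to 20 h (2.46 ± 0.43, edgeR adjusted p = 2.15e-06), and the other 5 were not called between these times. At 20 h Gm568 stood at 2.28, 2.53, and 2.84 CPM in Lat-/- cells against 0, 0.0749, and 0.0930 CPM in WT cells.

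The members were set beside the 10002 genes high enough at 0 h to pass the rule for features that the rule had not used. Their exons covered a median of 4419 bases, against 4483. The genomic span was over 100 kb for 24.0% of members (25 genes) and 10.6% of the 10002, and more than 10 kb of exons was held by 17.3% and 9.84%. In 4 equal bins of the 10002 by span, from short to long, the members numbered 26, 20, 19, and 39. Of all genes in these bins, 20.6%, 20.2%, 19.7%, and 24.3% were called lower at 4 h in enriched WT cells. The GC content of the longest transcript had a median of 51.4% and 49.3%. It was 52.1% for the 874 of the 10002 that passed the fall threshold in WT cells only. For the 58 genes left out because their falls differed by more than 1 it was 52.8%, so that a GC content above 49.3% was not particular to the members. Of the members, 93 were protein coding, 4 long intergenic RNAs, 4 antisense RNAs, and 2 pseudogenes, and 1 could not be matched. Exons of another gene overlapped those of 33 members, on the same strand for 7.

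Other motifs were searched on both strands of the same promoters. The cAMP response element TGACGTCA was in 0 of 82 members and 3.94% of the 7835 genes, and the AP-1 motif TGANTCA in 11.0% and 5.42%. The FOXO motif GTAAACA was in 3.66% and 3.13% and the E-box CACGTG in 7.32% and 12.6%. The CArG box was in 2.44% and 1.42%, and the glucocorticoid response element in 0 members and 0.0511%. Over all 27025 genes with a promoter, the cAMP response element was in 2.03%, the AP-1 motif in 8.97%, and the FOXO motif in 4.05%. The E-box was in 8.09% of them, the CArG box in 1.81%, and the glucocorticoid response element in 0.181%. The AP-1 and E-box shares of the members were thus nearer to those of all genes than to those of the 7835. These shares rest on few genes and were not tested.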

How the data were processed

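RNA of naive CD4+ T cells was measured in 36 samples of the CD5/CD6 experiment and 18 of the LAT experiment, grouped by the deposited labels. The authors prepared stranded mRNA libraries, sequenced single 50-base reads, used DimerRemover for trimming, STAR for mapping to GRCm38, and featureCounts for counting, and deposited raw counts per gene, without normalization, in 1 table per experiment. bcl2fastq 2.17.1.14 is named in the submitters' processing notes. The annotation release and the use of strand in counting are not given in the sources used here. Gene symbols were matched for 55144 of 55385 identifiers. Every column was assigned to a sample.

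Each table was fitted on its own in R 4.3.3 with edgeR 4.0.16 (genes with at least 1 read, TMM factors, 1 coefficient per genotype and time, quasi-likelihood test, Benjamini-Hochberg adjustment over all genes). Calls required more than a 2-fold change at an adjusted p under 0.05. Values given as CPM use the library total alone. Alternatives were DESeq2 1.42.0, RLE factors, library totals, edgeR's filter on low counts, only the groups compared, the replicate block, adjusted p alone, omission of each replicate in turn, other settings of the rule, and, where they enter, omission of the 0 h libraries 2 with the labels Cd5-/- and Cd6-/-. Promoters came from RefSeq.

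Same-numbered samples deviated together, with every correlation over 0.1, in 11 of 14 comparisons. The lowest was 0.0634, and nothing in the labels says that they were prepared together.

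The members and all lists were chosen with earlier results of these data known. Genes named had a mean of at least 20 counts in each experiment and were members of the lists, the highest at 0 h, those with the lowest fold changes at 4 h, those not called or with the largest differences in a comparison, and those at the edges of the rule. Others (such as Mccc2, Lrrc23, and the role groups) were named after their values were seen. Results on 1 gene that the rule also named are not reported here.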

Additional observations from a re-analysis of the deposited data

How the results depend on the processing

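The members that fell at 4 h numbered 99 to 104 in WT cells, 102 to 104 in Cd5-/-, 92 to 102 in Cd6-/-, and 100 to 103 in Cd5-/-Cd6-/- cells over the alternatives other than adjusted p alone, and those lower at 20 h than at 0 h numbered 81 to 83. From 4 h to 20 h in WT cells, 25 to 37 fell and 27 to 31 rose. In Lat-/- against WT cells at 20 h, 54 to 61 were higher and 11 to 15 lower. Counts near 0 moved more. With adjusted p alone, the members higher at 20 h than at 0 h numbered 8 in WT cells, 6 in cells without CD5, 7 in cells without CD6, and 7 in cells without both. In Cd6-/- cells this count was 1 with library totals and 1 to 2 without each replicate, and in Cd5-/-Cd6-/- cells it was 1 with RLE factors, library totals, the replicate block, or DESeq2, and 1 to 2 without each replicate. At 4 h, the members called against WT cells with the replicate block were 2 lower in Cd5-/- and 1 higher in Cd6-/- cells, and 1 was higher in Cd6-/- cells in the fit of only the groups compared. Without each replicate they were 2 to 3 lower in Cd5-/- cells, while 1 to 3 were higher in Cd6-/- cells and 0 to 3 in Cd5-/-Cd6-/- cells (3 without replicate 1, 0 without replicate 2 or 3). Besides the counts given here, the replicate block moved no count of calls by more than 1.5 times. The cause of these shifts was not tested.

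The rule kept 437 genes with falls of at least 1, 30 with falls of at least 2, 48 with falls that differed by at most 0.5, and 183 with a pseudocount of 0.25, of which 86 were among the 104. Without replicate 1, 2, or 3 the rule kept 107, 105, and 122 genes, with 86, 79, and 91 of the 104. Library totals in place of TMM factors moved the median of all genes by -0.19 to -0.23 at 4 h. Genes with a few counts left at 4 h, such as Drc1, have folds limited by depth.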
